A study of Mus musculus with 15 samples.

Results

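NADPH oxidase subunits were followed in the kidneys of Ang II-infused mice through 7 genes chosen by name: the catalytic subunits Nox4 and Cybb, their membrane partner Cyba, the cytosolic proteins Ncf1 and Ncf4, the small GTPase Rac1, and Poldip2, a protein that binds the Nox4 complex. RNA from renal tissue of 15 male wild-type C57BL/6 mice was sequenced, 5 in each of 3 groups. The mice were 8 weeks old on arrival and had 1 week of adaptation. The Control group was infused with saline, and the Ang II group with angiotensin II, a peptide hormone that raises blood pressure, at 500 ng/kg/min for 28 days from osmotic pumps under the skin. The Ang II + QDG group had the same infusion and received Qingda granule (QDG), a herbal preparation, at 1.145 g/kg/day into the stomach, while the other groups were given water. The labels name no batch, litter or pair. For each gene, the FPKM (fragments counted on a transcript, scaled by its length and by the total of the library) of all its annotated transcripts listed for all 15 mice were summed. Of the 7 genes, 5 had such a sum and passed the filter of at least 1 FPKM in at least 5 mice, among 12366 genes that did so.

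NADPH oxidases are membrane enzymes that pass electrons from NADPH to oxygen and so produce superoxide or hydrogen peroxide. The phagocyte enzyme, built on Cybb (gp91phox), rests until the cytosolic subunits and a Rac GTPase join it at the membrane, whereas Nox4, which is abundant in kidney tubules, is active without them and is set mainly by its amount. Both catalytic subunits need Cyba (p22phox) for a stable complex, and angiotensin II is a classical activator of these enzymes through its type 1 receptor.

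The Nox4 transcripts differ at a splice junction that decides whether the protein can be read through, so both forms of it are shown first. Nox4 lies on chromosome 7 (GRCm38, 87246096 to 87398710, plus strand). In Nox4-201 (ENSMUST00000032781), its main coding transcript, exon 2 ends at 87247583 and exon 3 begins at 87295784. In Nox4-205 (ENSMUST00000126887), which is annotated as a target of nonsense-mediated decay, exon 3 begins at 87295788. Each sequence below holds the last bases of exon 2 and the first of exon 3 from the GENCODE M21 transcripts. Capitals mark the 4 bases that only the longer exon 3 has and, in Nox4-205, the annotated stop codon at 87295797 to 87295799 that follows from their loss.
Nox4-201: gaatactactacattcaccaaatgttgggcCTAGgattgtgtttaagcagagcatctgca
Nox4-205: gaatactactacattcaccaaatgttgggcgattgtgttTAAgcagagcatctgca
By the annotation, the reading frame is 578 codons long in Nox4-201 and 54 codons long in Nox4-205. Outside this junction both transcripts have the same 18 exons, so that reads over the junction alone tell them apart. How reads were split between such transcripts was settled upstream, and levels of single transcripts are less certain than the gene's sum.

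None of the 5 measured members changed in any comparison at an adjusted p under 0.05 (limma, adjusted over all genes tested). Over all genes, 5.94% passed that threshold in Ang II vs. Control, 1.81% in Ang II + QDG vs. Ang II and 0.129% in Ang II + QDG vs. Control. At an unadjusted p under 0.05, 2 members passed in Ang II vs. Control (Cybb lower, Poldip2 higher), 1 in Ang II + QDG vs. Ang II (Cybb higher) and 1 in Ang II + QDG vs. Control (Poldip2 higher). The shares over all genes at that threshold were 22.7%, 16.4% and 14.4%. Exact permutation tests of the summed FPKM, two-sided and unadjusted, put the same members under 0.05 and added Cyba in Ang II + QDG vs. Ang II. The median log2 fold change of all genes was 0.08, −0.02 and 0.06 in the 3 comparisons. Per length, the order of the members was steady within a mouse. Cyba stood at a mean of 344 FPKM over the 15 mice, at the 99th percentile of all genes, and was above Nox4 (99.7 FPKM) in 15 of 15 mice. Nox4 was above Poldip2 (51.4 FPKM) and Rac1 (47.0 FPKM) in 14 of 15 mice, the exception being Ang II + QDG mouse 1. Poldip2 and Rac1 could not be ordered, since Poldip2 was the higher in 8 of 15 mice. Cybb was the lowest of the 5 measured members in every mouse, at a mean of 1.85 FPKM.

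The files give no totals. The FPKM steps implied library totals of 68922800 to 81329500 fragments, a scale on which 98.4% to 98.7% of values under 200 reads came out whole (within 0.05 of a read). The reads behind a member's sum ranged from 370 to 1366 for Cybb and from 5090 to 40975 for the others, so that counting error was at most 5.2% for Cybb and at most 1.4% for the rest. Such limits cover counting error only. The 10 proximal tubule markers, which define the main cell type of the kidney, were all measured and summed to 4340 to 5870 FPKM, and none of 6 lymphocyte markers was listed for all mice. Ang II + QDG mouse 4 stood apart in myeloid genes, with S100a9 at 39.3 FPKM against at most 2.81 FPKM in the other 14 mice.

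Nox4, the tubular catalytic subunit, had a lower mean in Ang II than in Control, with a spread that the test did not separate. Its summed FPKM in the 5 Control mice was 115, 92.5, 113, 102 and 103. In the Ang II mice it was 67.9, 92.9, 64.6, 84.1 and 103. The Ang II + QDG mice had 30.1, 169, 104, 150 and 104. In the Ang II group 3 mice were below every Control mouse and 2 lay within the Control range, while the Ang II + QDG group held both the lowest and the highest values of the study. Group means were 105 ± 9.18, 82.5 ± 16.3 and 111 ± 53.7 FPKM (SD, n = 5 each). The log2 fold change was −0.36 in Ang II vs. Control (95% confidence interval −1.11 to 0.38, adjusted p = 0.583). It was 0.25 between Ang II + QDG and Ang II (−0.50 to 0.99, adjusted p = 0.786), and −0.12 with Ang II + QDG set against Control (adjusted p = 0.911). As folds of FPKM + 1, the first interval ran from 0.464 to 1.30. Its width rests on the spread shared with the Ang II + QDG mice. With only Control and Ang II in the fit, the same log2 fold change of −0.36 had a standard error of 0.129 in place of 0.347 (limma adjusted p = 0.143), under 0.05 before adjustment but not after it.

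Ang II + QDG mouse 1 carried much of that width. Without it, the standard error in Ang II vs. Control was 0.157 (adjusted p = 0.19), again under 0.05 only before adjustment. The log2 fold change of Nox4 in Ang II + QDG vs. Ang II was 0.66 without that mouse (adjusted p = 0.0609), and as low as 0.046 without mouse 2 (adjusted p = 0.97) and 0.089 without mouse 4 (adjusted p = 0.948) of the same group. The value without mouse 1 in Ang II + QDG vs. Control turned to 0.30 (adjusted p = 0.442). In the Ang II group, mice 2 and 5, with the highest Nox4, also had the lowest Slc12a1, the sodium transporter of the thick ascending limb, at 18.0 and 42.1 FPKM against 94.6 to 163 FPKM in the other Ang II mice. The same mice had Slc12a3, the transporter of the distal convoluted tubule, at 142 and 130 FPKM against 51.2 to 84.0 FPKM. The other groups were mixed. Control mouse 2, with the lowest Nox4 of its group, had the highest Slc12a1 of that group (191 FPKM). Ang II + QDG mouse 1, with the lowest Nox4 of its group, had the lowest Slc12a1 of that group (132 FPKM). The part of these tubule segment markers in the Nox4 values was not tested. Without Ang II mice 2 and 5, the log2 fold change of Nox4 in Ang II vs. Control was −0.54 (adjusted p = 0.533).

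Of 8 annotated Nox4 transcripts, 7 were listed for all mice and 3 passed the filter. Nox4-201, which codes for the full enzyme, had 84.4, 47.6, 84.6, 50.9 and 59.1 FPKM in the Control mice and 45.0, 64.7, 31.7, 55.4 and 32.8 FPKM in the Ang II mice. In the Ang II + QDG mice it had 6.48, 86.9, 71.8, 66.1 and 72.0 FPKM, with mouse 1 far below all others. Nox4-205, with the shorter exon 3 printed above, had 29.6, 25.4, 27.9, 33.7 and 43.1 FPKM in the Control mice. It had 22.5, 27.5, 14.0, 27.9 and 37.4 FPKM in the Ang II mice, and 3.01, 28.1, 31.6, 37.7 and 31.2 FPKM in the Ang II + QDG mice. The groups overlapped for both transcripts. None of the tested Nox4 transcripts met the study's definition of a differentially expressed transcript, a fold change of at least 2 with an unadjusted p under 0.05 (here the fold of FPKM + 1), which 2.88%, 2.24% and 2.02% of all transcripts met in the 3 comparisons.

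**Figure D1:**
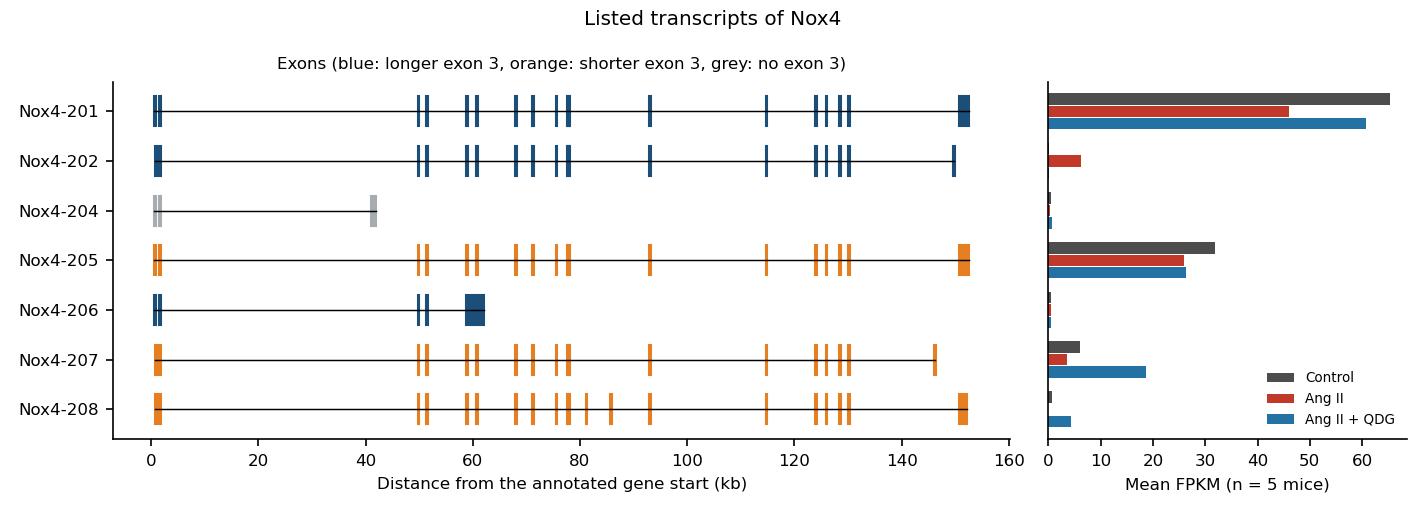
Exons of the 7 listed Nox4 transcripts against distance from the gene start in kb (left; exons narrower than 0.35 kb are drawn at 0.35 kb), coloured by the form of exon 3, and the mean FPKM of each transcript in the 3 groups (right, n = 5 mice). Nox4-201 and Nox4-205 carry most of the signal, and Nox4-207 has its highest mean, 18.7 FPKM, in Ang II + QDG.

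Of the remaining Nox4 transcripts, 3 were high in 1 to 5 mice and low elsewhere, and 2 were low in all mice. Nox4-207 (ENSMUST00000136577), another decay target with the shorter exon 3, had 14.8 and 15.7 FPKM in Control mice 2 and 4, 17.8 FPKM in Ang II mouse 3, and 49.1 and 43.2 FPKM in Ang II + QDG mice 2 and 4. In the other 10 mice it was at most 1.11 FPKM. Nox4-202 (ENSMUST00000068829), a coding transcript with its own last exon, reached 30.6 FPKM in Ang II mouse 5 and at most 0.182 FPKM in the other 14 mice. Nox4-208 (ENSMUST00000144267) had 18.4 FPKM in Ang II + QDG mouse 1, where it made up the larger part of the gene's sum, and at most 2.90 FPKM elsewhere. Nox4-204 and Nox4-206 stayed between 0.0327 and 1.47 FPKM in all mice.

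The reads in transcripts with the shorter exon 3 made up 35.9% ± 9.65 of Nox4 reads in the Control mice, 36.2% ± 5.70 in the Ang II mice and 44.2% ± 18.4 with QDG (SD, n = 5 each). That share ran from 24.8% to 47.5% in 14 mice and was 74.6% in Ang II + QDG mouse 1. The groups overlapped, and exact permutation tests gave adjusted p-values of 0.976, 0.679 and 0.679 over the 3 comparisons. Nox4-201 held 61.4% ± 11.9, 56.6% ± 15.9 and 51.0% ± 19.8 of the gene's summed FPKM, with an adjusted p of 0.643 in each of the 3 comparisons by the same exact test. With coding transcripts alone, the direction of Nox4 in Ang II + QDG vs. Ang II turned, to a log2 fold change of −0.12 (adjusted p = 0.948).

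**Figure D2:**
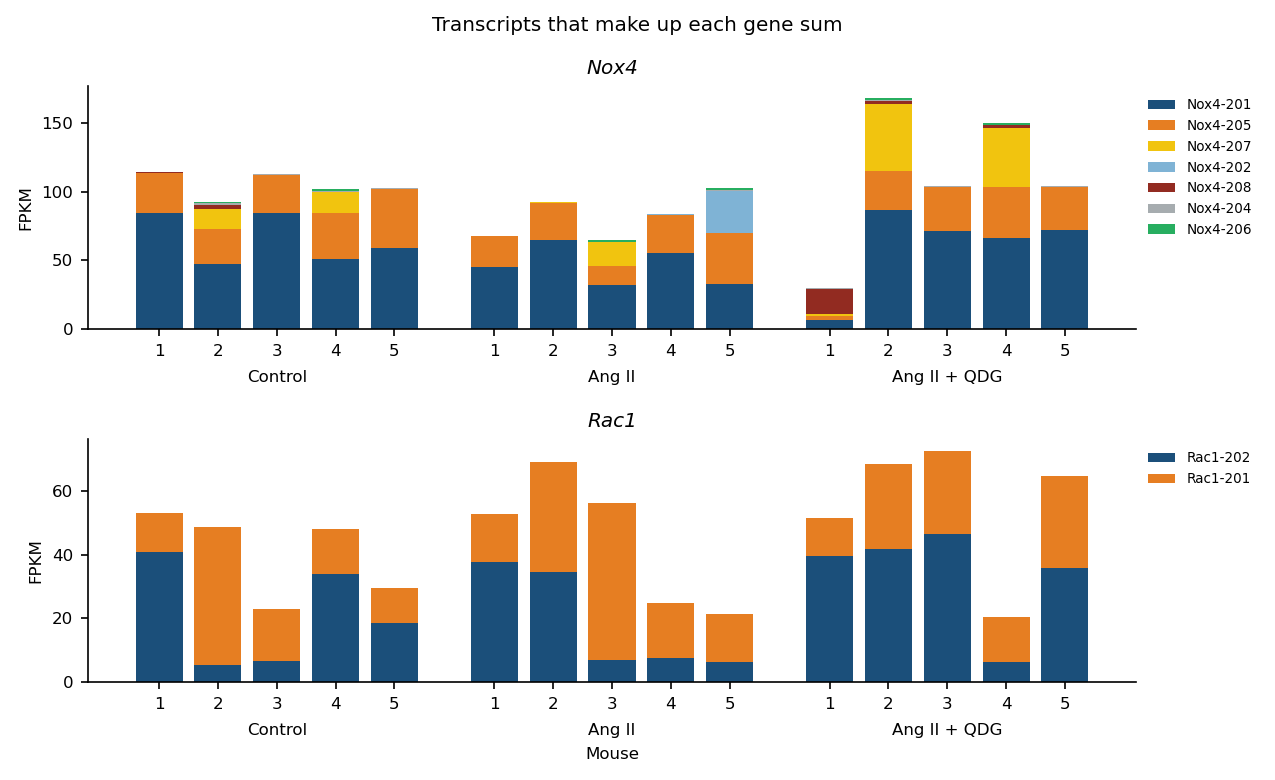
FPKM of each listed transcript of Nox4 (top) and Rac1 (bottom), stacked for each of the 15 mice, with the groups named under the bars. Nox4-207 appears in 5 mice spread over all 3 groups, Nox4-208 leads in Ang II + QDG mouse 1, and the Rac1 transcripts differ between mice of the same group.

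Cybb, the catalytic subunit of the phagocyte oxidase, was lower in each Ang II mouse than in any Control mouse. Its sum rests on Cybb-201 (ENSMUST00000015484, chromosome X, 9435252 to 9469324, minus strand). Control mice had 2.11, 2.06, 2.56, 2.09 and 1.47 FPKM. Ang II mice had 1.21, 1.36, 0.984, 1.31 and 1.35 FPKM. Ang II + QDG mice had 1.48, 2.43, 1.67, 4.10 and 1.60 FPKM. The Ang II values overlapped neither those of Control nor those of Ang II + QDG, whereas Control and Ang II + QDG overlapped. Groups that did not overlap, with the same direction, were found for 1.42% of all genes in Ang II vs. Control (lower) and, between Ang II + QDG and Ang II, for 1.56% (higher).

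The mean of Cybb was 2.06 ± 0.390 FPKM in Control, 1.24 ± 0.158 FPKM in Ang II and 2.26 ± 1.10 FPKM in Ang II + QDG (SD, n = 5 each). On the log2(FPKM + 1) scale, which understates the change of a gene this low, the log2 fold change was −0.44 in Ang II vs. Control (−0.81 to −0.07, limma adjusted p = 0.147). It was 0.48 between Ang II + QDG and Ang II (0.11 to 0.86, adjusted p = 0.175), and 0.04 between Ang II + QDG and Control (adjusted p = 0.938). The first and second comparisons share the Ang II mice, so their opposite signs are not independent. The exact permutation test gave an unadjusted p of 0.00794 in both, the smallest that 5 against 5 mice allow. Ang II + QDG mouse 4, the highest of all, bears on the first comparison only through the shared estimate of the spread. Without it, Cybb passed in Ang II vs. Control (adjusted p = 0.0433), and its log2 fold change in Ang II + QDG vs. Ang II was 0.31 (adjusted p = 0.264). With Ang II + QDG mice 1 and 4 both left out, a choice made after seeing the data, the adjusted p was 0.0476 in Ang II vs. Control. With only Control and Ang II in the fit, so without any Ang II + QDG mouse, Cybb did not pass (limma adjusted p = 0.0588).

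**Figure D3:**
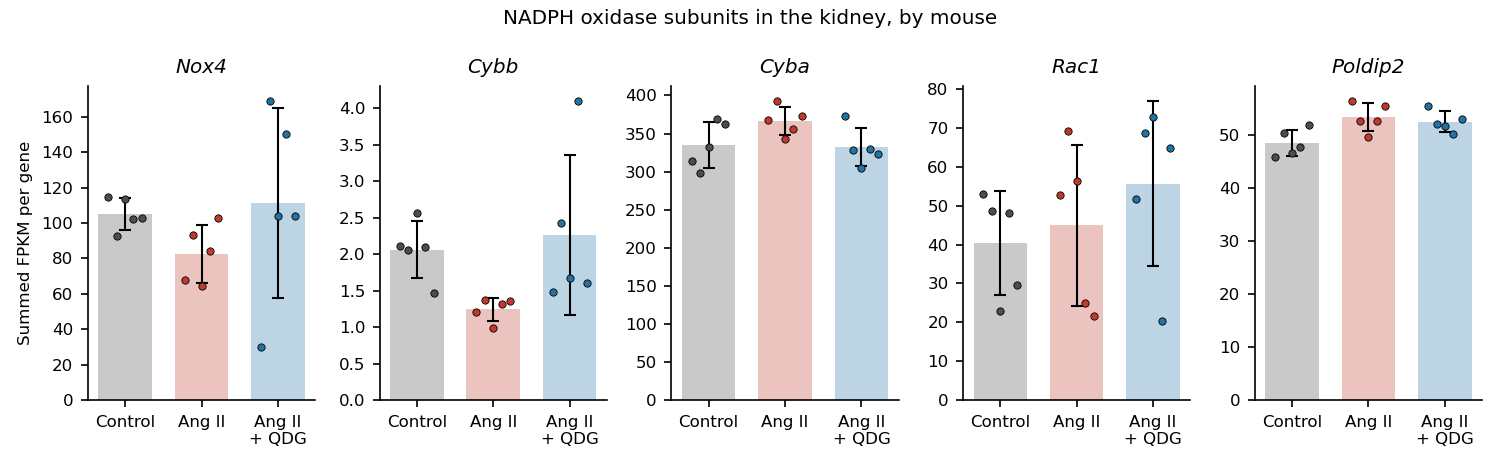
Summed FPKM of the 5 measured members (vertical axes, from 0) in the 3 groups, with 1 point per mouse, bars at the mean and error bars of 1 SD (n = 5). The Ang II points of Cybb lie below those of both other groups, and the Nox4 points of Ang II + QDG spread from 30.1 to 169 FPKM.

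Macrophages and other phagocytes are the main source of Cybb in most tissues, and most macrophage markers had lower levels in the Ang II mice as well, though none passed the test. Of 16 macrophage markers, 14 were tested (Itgam was not listed for all mice and Csf1r was under the filter). Csf1r, the receptor for macrophage colony-stimulating factor, went the other way over its listed transcripts, at 0.0362 FPKM on average in Control and 0.566 FPKM in Ang II. In Ang II, 4 of 5 mice were above every Control mouse, but the mean rests on mouse 2 at 2.20 FPKM, the others being at most 0.232 FPKM. Listed transcripts reach a group mean of about 0.5 FPKM. Csf1r did so in Ang II but not in Control or Ang II + QDG (0.421 FPKM), so the listing itself favours that direction. In Ang II vs. Control 13 of the 14 were lower and none passed at an adjusted p under 0.05. At an unadjusted p under 0.05, 3 were lower (Itgb2, Tyrobp and Cd74), where 4.83% of all genes were. The median log2 fold change of the 14 was −0.40, while 64.8% of all genes were higher in that comparison. In Ang II + QDG vs. Ang II 13 of the 14 were higher, none at an adjusted p under 0.05. At an unadjusted p under 0.05, 1 (Lyz2) was higher, where 6.02% of all genes were. The median of the 14 was 0.35, against −0.02 for all genes, of which 46.3% were higher. The summed level of the 15 listed markers was 162 to 262 FPKM in Control, 129 to 182 FPKM in Ang II and 134 to 399 FPKM in Ang II + QDG. The highest sum was that of mouse 4, and the other Ang II + QDG mice reached at most 221 FPKM. Beyond the relation over mice given below, the part of these markers in the Cybb values was not tested. In whole tissue, fewer cells of a type and less RNA per cell cannot be told apart.

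Across the 15 mice, Cybb was higher where the mean log2 level of the tested macrophage markers was higher (Pearson r = 0.93, permutation p = 4e-05, adjusted 8e-05 over the 2 relations tested; Spearman rho = 0.775, permutation p = 0.00116, adjusted 0.00232). Without Control mouse 2 and Ang II + QDG mouse 4, the mice farthest from the median of the marker level, r was 0.857, and with each group centred on its own mean it was 0.92. The other relation tested, of Nox4 with the proximal tubule markers, gave r = −0.476 (permutation p = 0.0736) and rho = −0.436 (permutation p = 0.106), and r = −0.347 without Control mouse 3 and Ang II + QDG mouse 1. The genes most like Cybb over the 15 mice were Adgre1, Laptm5, Cx3cr1, C1qc and Alox5ap, with r from 0.881 to 0.908 and rho from 0.746 to 0.829. Adgre1 and Cx3cr1 mark macrophages, C1qc is a complement subunit, and Alox5ap serves leukotriene synthesis. Those most like Nox4 were Pard3b, Ccdc85c, Tnfaip3, Zfp943 and Zfp41, with r from 0.803 to 0.869 but rank correlations (Spearman rho) of 0.368 to 0.757.

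**Figure D4:**
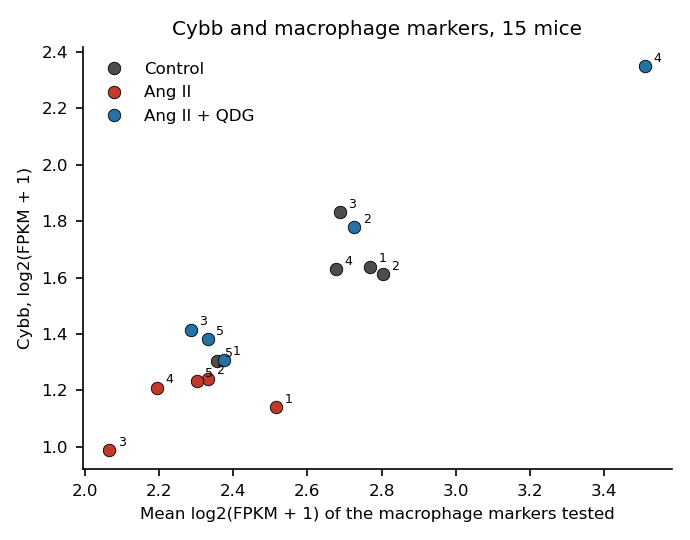
Cybb as log2(FPKM + 1) against the mean log2(FPKM + 1) of the 14 macrophage markers tested, with 1 point per mouse, coloured by group and numbered within it. Ang II mice lie at the lower left and Ang II + QDG mouse 4 at the upper right, and Pearson r over the 15 mice is 0.93.

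The Cybb promoter is shown because the gene varied with macrophage markers. PU.1, a transcription factor of myeloid cells, binds sites with the core GAGGAA, and both strands of the window were searched for it. The window runs from 250 bases before to 50 bases after the annotated start, at chrX:9469275-9469574 (RefSeq, GRCm38.p6, minus strand), and the capitals mark the match, TTCCTC, which is that core on the other strand.
Cybb promoter: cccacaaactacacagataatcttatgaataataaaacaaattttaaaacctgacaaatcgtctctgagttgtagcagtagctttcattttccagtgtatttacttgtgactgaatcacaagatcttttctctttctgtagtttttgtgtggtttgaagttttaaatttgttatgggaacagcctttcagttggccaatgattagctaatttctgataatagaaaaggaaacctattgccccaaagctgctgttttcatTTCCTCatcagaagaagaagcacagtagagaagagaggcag
The match begins 9 bases past the annotated start. Only this exact core was searched, so sites with other letters, before or after the start, are not marked. Binding of PU.1 was not measured. Of 32851 promoter windows of the same length, 28.3% hold at least 1 match on either strand. The windows of Nox4, Cyba, Ncf1 and Poldip2 hold none, which says only that these letters are not in them.

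Cyba, the p22phox subunit that anchors either catalytic subunit, was the most abundant member, and its groups differed little. Control mice had 314, 298, 333, 369 and 363 FPKM, and Ang II mice had 368, 393, 343, 356 and 373 FPKM. Ang II + QDG mice had 373, 329, 305, 329 and 324 FPKM. With QDG, 4 mice were below every Ang II mouse while mouse 1 lay within the Ang II range, and the groups overlapped in all comparisons. The means were 335 ± 30.3, 366 ± 18.8 and 332 ± 24.9 FPKM (SD, n = 5 each). The log2 fold change was 0.13 in Ang II vs. Control (−0.01 to 0.28, adjusted p = 0.276), −0.14 in Ang II + QDG vs. Ang II (−0.29 to 0.00, adjusted p = 0.309), and −0.01 between Ang II + QDG and Control (adjusted p = 0.951). With median scaling the first value was 0.040 (adjusted p = 0.823). The exact permutation test gave unadjusted p = 0.0476 in Ang II + QDG vs. Ang II. As folds of FPKM + 1, the interval ran from 0.990 to 1.21 in Ang II vs. Control and from 0.818 to 1.00 between both Ang II groups. Cyba-201 (ENSMUST00000017604, chromosome 8, 122424776 to 122432930, minus strand) carried the sum, with 290 to 372 FPKM. Gm20388, a gene model on the opposite strand, spans the locus, and the labels do not state whether strand was used in counting.

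Set against each other, the ratio of Cyba to Nox4 had a median of 3.22 in Control (2.74 to 3.61), 4.23 in Ang II (3.63 to 5.41) and 2.93 in Ang II + QDG (1.95 to 12.4). The ratio of Nox4 to Cybb had medians of 48.7, 65.6 and 62.5. The ratio of Cyba to Cybb ran from 130 to 247 in Control, from 271 to 348 in Ang II and from 80.3 to 252 in Ang II + QDG. The Ang II mice thus held the highest values of that last ratio, with no overlap with either other group. These ratios use the same values as the comparisons above and were not tested.

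Rac1, the GTPase that completes the phagocyte oxidase and has many other roles in the cytoskeleton, varied more within groups than between them. Control mice had 53.0, 48.6, 22.9, 48.2 and 29.5 FPKM, Ang II mice had 52.7, 69.2, 56.2, 24.9 and 21.5 FPKM, and Ang II + QDG mice had 51.7, 68.7, 72.7, 20.3 and 64.8 FPKM. Each group held both high and low mice, and their ranges overlapped nearly throughout. The log2 fold changes were 0.08 (−0.77 to 0.93, adjusted p = 0.933), 0.32 (−0.53 to 1.17, adjusted p = 0.749) and 0.40 (−0.45 to 1.25, adjusted p = 0.689) for Ang II against Control, for QDG added to Ang II, and for the latter against Control. Quantile normalization and median scaling turned the first to −0.003 and −0.013, so no direction can be given for it. The other values also moved with single mice. QDG added to Ang II gave 0.096 without Ang II mouse 5 and 0.64 without Ang II + QDG mouse 4, and 1.02 from the most abundant transcript alone. Ang II + QDG vs. Control gave 0.215 without Control mouse 3 and 0.718 without Ang II + QDG mouse 4.

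The Rac1 locus (chromosome 5, 143503634 to 143528036, minus strand) gave 2 listed transcripts, both coding. Rac1-201 (ENSMUST00000080537, 6 exons) had 12, 43.1, 16.2, 14.2 and 11.1 FPKM in the Control mice and 14.8, 34.7, 49.5, 17.5 and 15.3 FPKM in the Ang II mice. With QDG it had 12, 26.8, 26.3, 13.9 and 29.1 FPKM, and its high values lay in different mice of each group. Rac1-202 (ENSMUST00000100489, 7 exons) had 41.0, 5.46, 6.68, 34.0 and 18.4 FPKM in the Control mice, 37.8, 34.5, 6.78, 7.40 and 6.24 FPKM in the Ang II mice, and 39.7, 41.9, 46.4, 6.43 and 35.7 FPKM with QDG. Rac1-202 was thus at 5.46 to 7.40 FPKM in 6 mice and at 18.4 to 46.4 FPKM in the other 9, with mice of every group in both sets. The share of Rac1-201 in the sum was 49.9% ± 28.5, 61.5% ± 22.9 and 42.3% ± 16.6 (SD, n = 5 each; exact permutation adjusted p = 0.643, 0.524 and 0.643). Daglb and Gm42502 overlap Rac1 on the opposite strand, and how the counting treated strand is not given in the sources used here.

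Poldip2, which binds p22phox and raises Nox4 activity, had slightly higher means in both infused groups. Control mice had 45.9, 50.3, 46.7, 47.7 and 51.9 FPKM. Ang II mice had 56.4, 52.6, 49.6, 52.6 and 55.4 FPKM, and Ang II + QDG mice had 55.5, 52.1, 51.8, 50.1 and 53.0 FPKM. The highest Control value was exceeded by 4 of 5 Ang II mice and 3 of 5 Ang II + QDG mice, and the groups overlapped through the rest. The means were 48.5 ± 2.52, 53.3 ± 2.68 and 52.5 ± 1.96 FPKM (SD, n = 5 each), a narrow spread that made small differences measurable. The log2 fold change was 0.13 in Ang II vs. Control (0.03 to 0.24, limma adjusted p = 0.126), 0.11 in Ang II + QDG vs. Control (0.01 to 0.22, adjusted p = 0.323), and −0.02 between Ang II + QDG and Ang II (−0.13 to 0.09, adjusted p = 0.877). At 1.10-fold, the Ang II vs. Control value is close to the median of all genes, which was 0.08 on the log2 scale. It depended on the scaling, at 0.055 with quantile normalization (adjusted p = 0.55) and 0.044 with median scaling (adjusted p = 0.639), neither under 0.05 before adjustment. Median scaling also lowered the Ang II + QDG vs. Control value to 0.034 (adjusted p = 0.792). Poldip2-201 (ENSMUST00000001127, chromosome 11, 78512193 to 78522736, plus strand) held 42.4 to 52.5 FPKM of these sums.

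**Figure D5:**
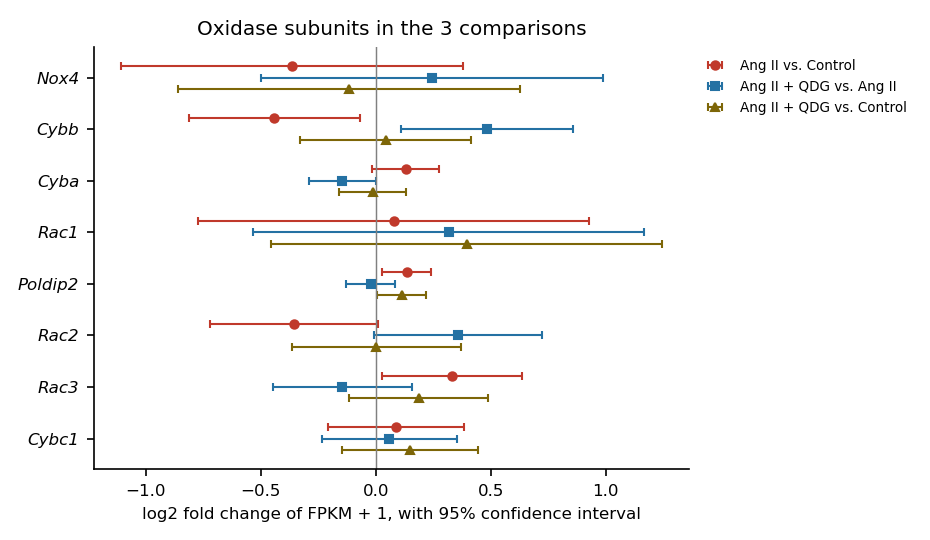
Log2 fold changes of FPKM + 1 (horizontal axis) with 95% confidence intervals for the 5 measured members and 3 other subunits, with 1 symbol per comparison. Cyba and Poldip2 have the narrowest intervals, and Nox4 and Rac1 the widest.

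Of the cytosolic subunits, Ncf1 (p47phox, the organizer) was listed for the Ang II and Ang II + QDG mice only and was not tested. Its level in Control is not known. Listed transcripts reach a group mean of about 0.5 FPKM, which Ncf1 did in Ang II + QDG (0.712 FPKM) but not in Ang II (0.313 FPKM). The listing itself thus favours the higher mean in Ang II + QDG, and no difference can be read from it. Its transcript Ncf1-202 (ENSMUST00000111275, chromosome 5, 134220260 to 134229625, minus strand) had 0.445, 0.751, 0, 0.369 and 0 FPKM in Ang II and 0.0633, 0.811, 0.629, 1.64 and 0.415 FPKM in Ang II + QDG. The groups overlapped, and the highest value was again that of Ang II + QDG mouse 4. Gtf2ird2 overlaps Ncf1 on the opposite strand. Ncf4 (p40phox) has 6 annotated transcripts, none of them listed for any mouse, so its level could not be measured. Nox1, Nox3, Duox1, Duox2, Noxa1 and Noxo1 were not analysed here.

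Of 14 further subunits and adaptors 3 were tested, and none passed at an adjusted p under 0.05. Rac2, the Rac form of blood cells, had 1.20, 1.20, 1.72, 1.29 and 1.10 FPKM in the Control mice, 1.27, 0.502, 0.861, 0.638 and 0.762 FPKM in the Ang II mice, and 0.884, 1.29, 1.06, 2.65 and 0.968 FPKM with QDG. In Ang II, 4 of 5 mice were below every mouse of both other groups, and Ang II mouse 1 lay within the Control range. The log2 fold change of Rac2 was −0.36 in Ang II vs. Control (adjusted p = 0.235), and 0.36 between Ang II + QDG and Ang II (adjusted p = 0.315), again with Ang II + QDG mouse 4 the highest. Cybc1, a chaperone of the Cybb and Cyba complex, had 3.96 ± 0.478, 4.36 ± 1.14 and 4.52 ± 0.647 FPKM (SD, n = 5 each), with overlapping groups. Rac3 had 2.26 ± 0.408, 3.15 ± 0.789 and 2.71 ± 0.435 FPKM, and its log2 fold change in Ang II vs. Control was 0.33 (limma adjusted p = 0.18).

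Among 29 regulators of these oxidases (receptors, kinases, exchange factors and chaperones), 25 were tested and none passed at an adjusted p under 0.05 in any comparison. Their median log2 fold changes were 0.06, −0.02 and 0.06, against 0.08, −0.02 and 0.06 for all genes. At an unadjusted p under 0.05, 7 were higher and 2 lower in Ang II vs. Control, where 17.9% and 4.83% of all genes were. The lower ones were Pak1 and Prkcz. In Ang II + QDG vs. Ang II none was higher and 4 were lower, among them Hsp90aa1, Hvcn1 and P4hb, where 6.02% and 10.4% of all genes were. Of these, P4hb, the protein disulfide isomerase that binds p47phox, had 232 ± 15.8, 262 ± 10.8 and 239 ± 7.29 FPKM (SD, n = 5 each), with log2 fold changes of 0.18 (limma adjusted p = 0.0519) and −0.14 (adjusted p = 0.179). In Ang II + QDG vs. Control, Hsp90aa1, an inducible HSP90 chaperone, had the lowest adjusted p of the list. Its FPKM was 134, 146, 104, 144 and 105 in Control, 116, 111, 84.4, 107 and 108 in Ang II, and 72.5, 67.3, 81.9, 94.8 and 81.2 in Ang II + QDG. Each Ang II + QDG mouse was below each Control mouse, which held for 0.857% of all genes, and the log2 fold change was −0.66 (limma adjusted p = 0.0628). At an unadjusted p under 0.05, 4 of the list were higher in that comparison (Pla2g4a, Prkcd, Tgfb1 and Vav3) and 2 lower (Egfr and Hsp90aa1), where 10.7% and 3.72% of all genes were. These regulators were named after their values were seen.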

How the data were processed

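Total RNA from renal tissue was depleted of rRNA and sequenced in pairs of reads; the study's methods and the labels differ on a poly(A) step. The authors deposited 1 table per mouse of values per transcript, read here as FPKM because FPKM times transcript length gave whole reads (within 0.05 of a read). The labels name mm10 and limma; the aligner and the counter are not given in the sources used here. Deposited tables list 41477 transcripts (Control) or 42310 (both Ang II groups), and listed transcripts reach a group mean of about 0.5. Ensembl identifiers (31244 of 31301) were matched to GENCODE M21. Assembled transcripts without an identifier held 9.57% to 11.9% of each mouse's FPKM and entered no gene sum, so reads of the members may be missing with them.

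FPKM were summed per gene over transcripts listed for all mice, and log2(FPKM + 1) was fitted with limma 3.58.1 (R 4.3.3), with a mean per group over all 15 mice, trended variance and Benjamini-Hochberg adjustment over the 12366 genes that reached 1 FPKM in 5 or more mice. Transcripts (28812) were fitted alike. Exact two-sided permutation tests served single values (scipy 1.17.1), and relations over 15 mice used 100000 permutations. The fit was tested on simulated data. The members and gene lists were chosen with earlier results of these data known. The text names all members, all listed Nox4 transcripts, other transcripts holding at least 10% of a gene's sum, measured oxidase subunits, listed regulators with an adjusted p under 0.05 (none passed), and the 5 genes most correlated with Nox4 and with Cybb. The regulators that the text names fall outside this rule and were chosen after their values were seen. Some genes of the lists are not reported here. The labels do not tie replicates to separate litters or batches. Alternatives were another pseudocount, no filter, quantile and median scaling, missing transcripts as 0, no variance trend, the top or the coding transcripts alone, the 2 groups alone, each mouse left out, and, chosen after seeing the data, reads scaled to the library total without division by length, and the mice named in the text left out.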

Additional observations from a re-analysis of the deposited data

Results flagged for a closer look

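Within 39 groups of 5 mice examined, 8 held a value far outside the others (gap over range above 0.71), where chance flags about 1 in 20; all 8 were single transcripts of Nox4 or Rac1. Nox4-201 (ENSMUST00000032781) was 6.48 FPKM in Ang II + QDG mouse 1, the next value of the group being 66.1 FPKM. Nox4-205 (ENSMUST00000126887) was 3.01 FPKM in the same mouse, the next being 28.1 FPKM. Nox4-208 (ENSMUST00000144267) was 18.4 FPKM there, the next being 2.01 FPKM, and it was 2.90 FPKM in Control mouse 2, the next being 0.108 FPKM. Nox4-202 (ENSMUST00000068829) was 30.6 FPKM in Ang II mouse 5, the next being 0.182 FPKM. Nox4-207 (ENSMUST00000136577) was 17.8 FPKM in Ang II mouse 3, the next being 0.138 FPKM. Rac1-201 (ENSMUST00000080537) was 43.1 FPKM in Control mouse 2, the next being 16.2 FPKM. Rac1-202 (ENSMUST00000100489) was 6.43 FPKM in Ang II + QDG mouse 4, the next being 35.7 FPKM.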

How the results depend on the processing

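No paired analysis was possible because the labels give the mice no replicate numbers, so mice were numbered in the order of deposit. Log2 fold changes are given unless stated. Quantile normalization turned the direction of Rac1 in Ang II vs. Control (−0.003) and, against the main sign, of Poldip2 from Ang II to Ang II + QDG (0.052), and of Cyba (0.016) and Cybb (−0.052) in Ang II + QDG vs. Control. Median scaling turned Rac1 (−0.013) and Cybb (−0.035) in those comparisons. The most abundant transcript alone turned Rac1 in Ang II vs. Control (−0.223), and coding transcripts alone turned Nox4 from Ang II to Ang II + QDG (−0.122). With Ang II + QDG mice 1 and 4 left out, 1 member (Cybb) passed in Ang II vs. Control instead of 0, and Nox4 (0.222) and Cybb (−0.079) turned in Ang II + QDG vs. Control. The difference in mean FPKM of Nox4 in that comparison was 6.37, against the sign of its log2 value. None of these turned values passed a threshold, and the cause was not tested.

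With each mouse left out in turn, 0 to 1 members passed in Ang II vs. Control, the 1 being Cybb without Ang II + QDG mouse 4. Rac1 ranged from −0.11 to 0.30 in Ang II vs. Control, from 0.096 to 0.64 between the Ang II groups and from 0.215 to 0.718 in Ang II + QDG vs. Control. Nox4 ranged from 0.046 to 0.659 between the Ang II groups. In Ang II + QDG vs. Control, Nox4 ranged from −0.318 to 0.295, Cyba from −0.056 to 0.022 and Cybb from −0.133 to 0.127. The difference in the share of Nox4-201 ranged from −8.08 to 1.35 percentage points in Ang II vs. Control, positive only without Ang II mouse 5, and from −11.7 to 1.82 points between the Ang II groups, positive only without Ang II + QDG mouse 1. Of all genes, 735 passed in Ang II vs. Control, with 83 to 815 under the other settings (83 without Ang II mice 2 and 5), 224 between the Ang II groups (10 to 249, the lowest again without those mice) and 16 in Ang II + QDG vs. Control (0 to 110). Reads scaled to the library total alone, in place of FPKM, changed no member's call.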
